A study of Mus musculus with 7 samples.

Results

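The cortex library was compared with 6 other tissues of the lean mouse, gene by gene, to find which protein-coding genes and long noncoding RNAs (lncRNAs) it held above or below all of them. The labels describe every tissue as C57BL/6, genotype wt, on the diet NCD, which they do not spell out, and 36 weeks of age, and besides cortex the tissues were liver, kidney, skeletal muscle and the adipose tissues of visceral (VAT), subcutaneous (SCAT) and interscapular brown (BAT) depots. Each tissue had 1 library, so no difference here has a replicate check, no p-value was computed and every comparison describes these 7 libraries. Expression is given as FPKM, the fragments per kilobase of transcript and library size, and fragment counts are not given, so the depth behind a value is unknown. A gene was called cortex-enriched when it had at least 1 FPKM in cortex and its log2(FPKM + 0.1) there was at least 2, or 4-fold, above the highest of the other 6 tissues. This log2 difference is called the log2 ratio throughout, and it understates the difference for low values. A gene was called cortex-low when every other tissue had at least 1 FPKM and cortex was at least 4-fold below the lowest of them on the same scale.

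The table named 50226 genes, of which 14933 protein-coding genes and 1380 lncRNAs reached 1 FPKM in any tissue and are called expressed. In cortex, 11218 protein-coding genes and 682 lncRNAs reached 1 FPKM. The rule called 1226 of the 14933 expressed protein-coding genes (8.21%) and 130 of the 1380 expressed lncRNAs (9.42%) cortex-enriched. The same rule gave fewer protein-coding genes in every other tissue, with 506 for liver, 504 for skeletal muscle, 371 for kidney, 290 for SCAT, 182 for VAT and 113 for BAT. Cortex-low were 242 of the 8335 protein-coding genes that reached 1 FPKM in all other tissues (2.90%) and 13 of 369 such lncRNAs (3.52%).

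Neurons of the cerebral cortex signal through synapses, where glutamate excites and GABA inhibits the receiving cell, and astrocytes, myelin-forming oligodendrocytes and microglia surround them. In non-neuronal cells many neuronal genes are held silent by the repressor REST, which binds the RE1 element, while cyclic AMP and neuronal activity switch on genes through the cyclic AMP response element (CRE). Because cortex is a mixture of cells, a lower FPKM there can come from fewer cells of a type or from less RNA per cell, and in bulk tissue these cannot be told apart.

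Promoters are shown for 3 cortex-enriched genes because these elements bear on neuronal expression. The sequences are from RefSeq on GRCm38.p6, run 5′ to 3′ on the strand of the gene from 250 bases before the transcription start to 10 after it, and carry the matched letters in capitals. The 3 strings of 8 letters were searched for on both strands in the window from 250 bases before to 50 after the start: the left part of RE1 (TCAGCACC), its right part (GGACAGCG) and the full CRE (TGACGTCA). Of all 32851 RefSeq promoters, 1.65% held the left part, 1.26% the right part and 1.79% the CRE. Among the 11535 expressed protein-coding genes matched to a promoter (77.2% of 14933), the shares were 1.99%, 2.45% and 3.23% in the same order. The Gria2 promoter (chr3:80802826-80803085, minus strand) held the right part of RE1 as its reverse complement, which begins 172 bases before the start. The Scg2 promoter (chr1:79440017-79440276, minus strand) held a CRE and, beginning 7 bases before the start, the left part of RE1 as its reverse complement. The Sst promoter (chr16:23890835-23891094, minus strand) held a CRE that begins 48 bases before the start, and it was chosen after its values were seen. Gria2 and Scg2 were picked as the genes with the largest log2 ratio among enriched genes holding the right and the left part of RE1. That they hold these parts therefore follows from the choice and is no result.
Gria2 promoter: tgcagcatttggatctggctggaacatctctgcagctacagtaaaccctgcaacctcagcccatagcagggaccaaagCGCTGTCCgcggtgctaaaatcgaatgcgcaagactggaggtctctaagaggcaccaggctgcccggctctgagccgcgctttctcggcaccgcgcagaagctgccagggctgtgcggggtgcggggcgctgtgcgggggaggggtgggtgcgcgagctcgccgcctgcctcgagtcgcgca
Scg2 promoter: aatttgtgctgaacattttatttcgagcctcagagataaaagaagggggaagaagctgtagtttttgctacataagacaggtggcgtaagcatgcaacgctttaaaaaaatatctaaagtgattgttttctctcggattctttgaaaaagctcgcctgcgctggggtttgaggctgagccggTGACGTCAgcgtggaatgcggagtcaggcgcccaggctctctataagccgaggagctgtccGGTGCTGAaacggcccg
Sst promoter: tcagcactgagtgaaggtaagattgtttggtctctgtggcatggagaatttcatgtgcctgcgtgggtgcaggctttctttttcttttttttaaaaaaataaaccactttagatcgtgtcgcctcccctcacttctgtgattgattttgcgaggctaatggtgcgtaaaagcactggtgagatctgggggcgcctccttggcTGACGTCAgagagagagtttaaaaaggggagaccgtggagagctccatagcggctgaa
Only 882 of the 1226 cortex-enriched protein-coding genes (71.9%) could be matched to a promoter, so the motif shares computed for the gene sets are void as a comparison between them and are not given. A match is a string of letters and not a site shown to be bound.

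The label cortex was checked against marker genes. Snap25, a SNARE protein of synaptic vesicle fusion (chr2:136713453-136782428), had 215 FPKM in cortex against 0.00771 in liver, 0.0119 in kidney, 0.0796 in VAT, 0.0907 in SCAT, 0.0680 in skeletal muscle and 0 in BAT. Syt1, the calcium sensor of vesicle release, had 51.5 FPKM in cortex against 0.812 in liver, 0.0186 in kidney, 0.0465 in VAT, 0.119 in SCAT, and was listed at 0 in BAT and skeletal muscle. Gfap, the intermediate filament of astrocytes, had 91.5 FPKM in cortex against 0.494 in liver, 0.0881 in kidney, 0.223 in VAT, 0.0345 in SCAT and was listed at 0 in BAT and skeletal muscle. Cortex was far above every other library for these 3 genes, with log2 ratios of 10.14, 5.82 and 7.27. Mbp, a myelin protein, had 54.6 FPKM in cortex, 0.0498 in liver, 0.272 in kidney, 0.751 in VAT, 1.78 in SCAT, 2.36 in skeletal muscle and 4.11 in BAT, a log2 ratio of 3.70. All 4 genes passed the rule. The defining genes of kidney cortex were at or near 0, with Slc34a1 at 0.0148 FPKM, Lrp2 at 0.0841 and Umod listed at 0, whereas kidney had 505, 222 and 929.5. The adrenal genes Cyp11b1 and Cyp21a1 were also listed at 0 in cortex. Of the 8 kidney and adrenal genes 6 were below 0.1 FPKM in cortex, and the other two were Cyp11a1 at 0.316 and Star at 2.09, which had 1.37 to 2.30 in the other tissues. The label was therefore read as cerebral cortex.

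**Figure D1:**
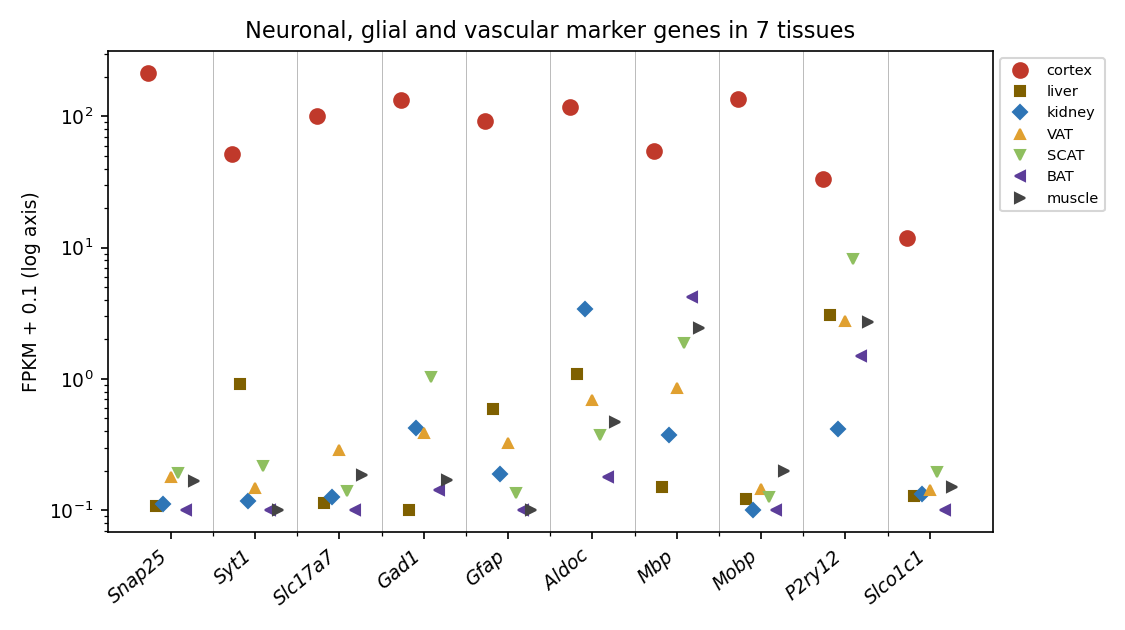
FPKM plus 0.1 on a log axis for neuronal and glial marker genes in the 7 libraries, with 1 symbol per tissue and no error bars because each tissue has 1 library. Snap25 lies at 215 FPKM in cortex and at or below 0.0907 in every other tissue, and Gfap, Syt1 and Mbp also lie highest in cortex.

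The annotated strand matters for several of these values. The libraries were made with a directional kit, but the strand setting used for counting is not given in the sources used here, and the table often lists a name at 2 or more loci on opposite strands, of which the one with the highest FPKM was used. Snap25 and Mbp had 1 locus on their annotated strand. For Gfap the locus used lies on the opposite strand, and the locus on the annotated strand had 22.8 FPKM in cortex. Likewise Nefl had 254 FPKM at the locus used and 17.99 on the annotated strand, Vsnl1 had 141 and 66.0, and Gad1 had 133 and 34.7. Among the cortex-enriched protein-coding genes 58.0% were read from their annotated strand, against 79.6% of all expressed ones. The cortex levels of genes read from the opposite strand are therefore uncertain, while their rank of cortex above the other tissues was the same at both loci for the 4 genes just named.

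Most cortex-enriched genes were near or below the limit of 1 FPKM outside cortex. Of the 1226 protein-coding genes, 831 (67.8%) were below 1 FPKM in all 6 other tissues and 309 were below 0.1 in all of them. Their median log2 ratio was 3.86 and their median cortex level 10.5 FPKM. The median log2 ratio over all expressed protein-coding genes was -1.37, and 3152 of them (21.1%) had their highest level in cortex. A log2 ratio of at least 6 was reached by 166 genes and of at least 8 by 20. The next highest tissue was VAT for 383 genes (31.2%), kidney for 230 (18.8%), skeletal muscle for 211 (17.2%), SCAT for 171 (13.9%), BAT for 133 (10.8%) and liver for 98 (7.99%). The 1226 names stood at 1160 distinct loci, and 1 merged locus with 47.3 FPKM in cortex and a log2 ratio of 2.14 carried 39 names, most of them clustered protocadherins, and gave 38 of the enriched names.

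The largest log2 ratio of all belonged to Snap25. Gria2, the AMPA receptor subunit that limits calcium entry (chr3:80681450-80802835), had 124 FPKM in cortex and was listed at 0 in liver and BAT, with 0.0147 in kidney, 0.0266 in VAT, 0.0475 in SCAT and 0.0259 in skeletal muscle. No other library reached 0.05 FPKM for this gene, whose log2 ratio was 9.72 and whose promoter is printed above. Vsnl1, a neuronal calcium sensor, had 141 FPKM and a log2 ratio of 9.41, and Mobp, a myelin protein of oligodendrocytes, had 135 FPKM and 9.40. Gabrb2, a beta subunit of the GABA-A receptor, had 77.5 FPKM in cortex, at most 0.116 elsewhere and a log2 ratio of 8.49. Further genes among the 15 largest log2 ratios were Nell2 (9.13), Nefl (9.02), Camkv (8.93), Scg2 (8.63), Stmn3 (8.62), Slc17a7 (8.45), Cpne6 (8.32) and Frrs1l (8.31). All 15 were at or below 0.389 FPKM in every other tissue. Vsnl1, Nefl, Scg2, Gabrb2 and Frrs1l were read from the strand opposite to their annotation.

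Ranked by level rather than ratio, the enriched genes were led by Ndrg4 (276 FPKM), Chn1 (268), Nefl (254), Gpm6a (229), Nap1l5 (229) and Map2 (228), followed by the shared locus of Snrpn, Snurf and Gm38393 (221), Snap25 (215), Eno2 (212), Uchl1 (193), Hpcal4 (189), Pcp4 (163) and Scg5 (159). Nefl, Nap1l5, Hpcal4, Pcp4 and Scg5 were read from the opposite strand, so their ranks are uncertain. On the annotated strand Nefl had 17.99 FPKM in cortex and Hpcal4 92.6. Chn1 codes for a Rac-regulating protein of neurons, Map2 for a dendritic microtubule protein and Uchl1 for a neuronal deubiquitinating enzyme. High level did not mean absence elsewhere. Gpm6a, a neuronal membrane glycoprotein, had 22.1 FPKM in kidney and a log2 ratio of 3.37, and the Snrpn locus, which is expressed from the paternal allele, had 30.6 FPKM in skeletal muscle and 2.85. At 100 FPKM or more there were 45 enriched protein-coding genes, and at 200 or more 11.

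Of 19 general neuronal genes, all were highest in cortex and 17 were enriched, with a median log2 ratio of 6.45. Of all expressed protein-coding genes, 21.1% were highest in cortex and 8.21% were enriched. Nefm, a neurofilament subunit, had 35.1 FPKM in cortex and at most 0.0579 elsewhere. Gap43, a growth cone protein, had 20.97 FPKM and at most 0.0320 elsewhere, and Rbfox3, the neuronal splicing factor known as NeuN, had 18.7 FPKM and at most 0.0887. The exceptions were Mapt and Syn1. Mapt, which codes for the axonal microtubule protein tau, had 39.98 FPKM in cortex, 16.9 in kidney and 15.1 in skeletal muscle, and Syn1, a synaptic vesicle phosphoprotein, had 10.5 in cortex and 3.07 to 5.09 elsewhere.

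Excitatory neurons were represented by 13 enriched genes of 18, beside 8.21% of all expressed protein-coding genes, with a median log2 ratio of 5.05. Slc17a7, which loads vesicles with glutamate in cortical projection neurons (chr7:45163949-45176142), had 100.2 FPKM in cortex and at most 0.186 elsewhere. Slc17a6, its relative in thalamic and other subcortical neurons, had 11.7 FPKM and at most 0.0713. The transcription factors Neurod6 and Neurod2 had 27.5 and 9.63 FPKM and were at most 0.0109 in any other tissue, although the Neurod6 locus also carries the name of the lncRNA Gm3279. Camk2a and Camk2b, subunits of the kinase CaMKII, did not pass the rule. Camk2a had 71.9 FPKM in cortex and 32.7 in skeletal muscle, with at most 0.446 in the other 5, and Camk2b had 105 in cortex and 51.8 in skeletal muscle. Neurod1 and Emx1 were not highest in cortex. Neurod1, at a locus shared with Cerkl, had 3.87 in cortex and 11.1 in SCAT, and Emx1 had 0.556 in cortex and 2.33 in kidney.

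Inhibitory interneurons were represented by 11 enriched genes of 15 expressed, beside 8.21% of all expressed protein-coding genes, with a median log2 ratio of 5.65. Gad1 and Gad2, the enzymes that make GABA, had 133 and 27.0 FPKM in cortex. Gad2 was at most 0.0473 elsewhere, and Slc32a1, which loads GABA into vesicles, had 5.38 FPKM and at most 0.0133 elsewhere. Among the peptides and calcium-binding proteins that divide interneurons into classes, Sst had 18.4 FPKM, Vip 11.4 and Calb2 6.28, and none exceeded 0.0218 in another tissue. Pvalb, Npy, Reln and Sp9, also on the list, did not separate cortex from the other tissues. Pvalb, which codes for a calcium buffer also found in fast muscle fibres, had 11.5 FPKM in cortex and 4675 in skeletal muscle, and Npy had 36.7 in cortex and 45.9 in VAT. Reln had 5.17 in cortex and 14.3 in liver, and Sp9 had 0.216 in cortex and 0.339 to 1.51 elsewhere.

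Genes of single neocortical layers gave a weaker contrast, with 8 of 16 expressed members enriched and a median log2 ratio of 1.79. Of all expressed protein-coding genes 8.21% were enriched. With the annotated strand alone 5 of 13 were enriched, and Rorb, Fezf2 and Ntsr1 below were read from the opposite strand. Members from the upper and the deep layers were both among the enriched. Cux2 and Rorb, transcription factors of upper layers and layer 4, had 10.9 and 12.2 FPKM in cortex and at most 0.760 and 0.387 elsewhere. Fezf2 and Ntsr1, of layers 5 and 6, had 1.42 and 1.41 FPKM and at most 0.0120 elsewhere. Bcl11b and Foxp2, which also serve other tissues, had 0.735 and 1.37 FPKM in cortex, below SCAT at 1.13 and VAT at 1.84.

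Genes of other brain regions were also looked up, beside the 8.21% of all expressed protein-coding genes that were enriched. The counts for hindbrain and midbrain (0 of 5 expressed) and for thalamus and hypothalamus (1 of 6) lie near that share. They are no result about these lists. Of the list for cerebellum, midbrain and brainstem, no gene was enriched, 5 of 10 were below 0.1 FPKM in cortex and Th, the enzyme of dopamine synthesis, had 0.136. Of the thalamus and hypothalamus list, Lhx9 alone was enriched at 2.32 FPKM, a call lost when only loci on the annotated strand were used. The hypothalamic peptides Hcrt, Oxt, Pmch and Avp lay between 0 and 0.254 FPKM in cortex, Pomc had 1.04 and Agrp 1.28. Of 10 striatal genes 7 were expressed and all 7 reached 1 FPKM in cortex, beside 11218 of the 14933 expressed protein-coding genes. Ppp1r1b had 10.8 FPKM in cortex, though also 9.72 in kidney, and Drd1 had 2.26 in cortex, while Drd2 had 0.410 and Adora2a 0.240. Of 7 expressed members 3 passed the rule, beside the same 8.21%, Drd1 and Tac1 (18.9 FPKM) among them. With the annotated strand alone 1 of 5 did. Of 8 hippocampal genes, all expressed, 7 reached 1 FPKM in cortex, a share not far from the same 11218 of 14933. C1ql2 at 2.35 FPKM and Fibcd1 at 8.56 were enriched, both read from the opposite strand, and 1 of 6 expressed genes was enriched with the annotated strand alone. Spink8 had 11.00 in cortex but was highest in VAT, and Prox1 and Tdo2 were highest in liver.

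Families of neuronal membrane proteins were described by name pattern, beside the 8.21% of all expressed protein-coding genes. All 12 expressed GABA-A receptor subunits were enriched, as were all 5 metabotropic glutamate receptors, all 6 contactins and all 3 complexins. Of 18 ionotropic glutamate receptor subunits 14 were enriched, of 6 neurexins and neuroligins 5, of 7 contactin-associated proteins 6 and of 11 serotonin receptors 8. Ion channels were divided, with 32 of 76 potassium channel genes, 10 of 23 calcium channel genes and 6 of 10 sodium channel genes enriched. Of 11 acetylcholine receptor genes 3 were enriched. For contrast, 2 of 20 semaphorins, 10 of 295 Zfp zinc finger genes (3.39%) and 0 of 79 cytosolic ribosomal protein genes passed the rule, and the ribosomal proteins had a median log2 ratio of -1.35, close to that of all genes.

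Of a list of 16 genes, made up of neuropeptides and granins, the cargo of dense-core vesicles, and of Nrn1, Nptx1, Nptxr and Olfm1, which are neither, 14 were enriched, with a median log2 ratio of 5.59. The share over all expressed protein-coding genes was 8.21%. Scg2, whose promoter is printed above, had 93.3 FPKM in cortex and at most 0.135 elsewhere. Sst, on the list of interneuron genes, and Vgf (25.4 FPKM), Chga (8.67), Chgb (12.6), Tac2 (3.17), Adcyap1 (4.58) and Crh (1.81) were each at most 0.0361 in every other tissue. Penk and Nrn1 were the exceptions. Penk, the enkephalin precursor, had 2.87 FPKM in cortex and 4.33 in VAT, and Nrn1 had 28.8 in cortex and 35.4 in liver.

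Isoforms of common enzymes and cytoskeletal proteins with a known neural form were enriched in 13 of 20 cases, with a median log2 ratio of 3.34. The share over all expressed protein-coding genes was 8.21%. Eno2, the neuronal enolase, had 212 FPKM in cortex and at most 1.39 elsewhere. Kif5c and Kif1a, motors of axonal transport, had 128 and 89.8 FPKM and at most 0.972 and 0.313 elsewhere. Atp1b1, the widespread beta subunit of the sodium pump, did not separate cortex, with 214 FPKM there and 306 in kidney.

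Forebrain transcription factors were lower in level but enriched in 8 of 14 cases, beside 8.21% of all expressed protein-coding genes. Myt1l had 11.99 FPKM in cortex and at most 0.0281 elsewhere, and Pou3f2, at a locus shared with Gm30731, 6.87 and at most 0.0247. Mef2c had 84.3 FPKM in cortex but 212 in skeletal muscle. Of 10 expressed activity-induced genes, 3 were enriched, beside the same 8.21%. Arc, a synaptic immediate early gene, had 16.98 FPKM in cortex and at most 1.15 elsewhere, whereas Fos had 2.12 in cortex, 5.23 in skeletal muscle and 4.27 in VAT.

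Glia divided by type. Of 16 expressed genes of myelinating oligodendrocytes, 10 were enriched, with a median log2 ratio of 2.92, and of 18 astrocyte genes 4 were, with a median of 0.52. The share over all expressed protein-coding genes was 8.21%. Mag, an adhesion protein of myelin, had 13.7 FPKM in cortex and at most 0.182 elsewhere. Olig2, a transcription factor of the lineage, had 2.56 FPKM and at most 0.0146. Others of the list were higher outside the brain. Aspa, the enzyme that cleaves N-acetylaspartate, was lowest in cortex at 7.30 FPKM against 8.74 to 81.7, Mal had 5.39 in cortex and 11.3 in kidney, and Ugt8a had 2.87 in cortex and 9.97 in kidney. Myrf, from a locus shared with Fen1, had 1.11 in cortex and 4.14 in liver. Of the Schwann cell list, Prx, a protein of peripheral myelin, was near 0 in cortex at 0.0477 FPKM. Cdh19, however, was highest in cortex at 2.16 FPKM, and Pmp22 and Scn7a had 1.67 and 1.85 there. Enriched were 0 of 6 expressed members, a count near the 8.21% of all expressed protein-coding genes and so no result about the list. Besides Gfap, the enriched astrocyte genes were Aldoc (118 FPKM), Mlc1 (17.8) and Gjb6 (7.48). Several other astrocyte genes were also expressed in metabolic tissues. Slc1a2, the main glutamate transporter, had 93.6 FPKM in cortex and 35.6 in liver, Aqp4 had 31.4 in cortex and 20.4 in kidney, and Glul, which makes glutamine from glutamate, had 251 in cortex, 271 in liver and 371 in BAT. Gja1, the connexin of astrocytes, was listed at only 1.19 FPKM in cortex and at most 3.002 in any tissue.

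Precursors of oligodendrocytes gave 4 enriched genes of 8, beside 8.21% of all expressed protein-coding genes, among them Tnr (16.7 FPKM) and Bcas1 (29.2). Pdgfra (3.71 in cortex, 9.74 in skeletal muscle) and Cspg4 (0.833 in cortex, 4.90 in BAT) are shared with other stromal cells. Gpr17 was the 1 member of the list that was cortex-low, at 0.265 FPKM against 2.07 to 6.46 elsewhere, but its locus also carries the name Myo7b and the values cannot be assigned to either gene. Of 14 genes of microglia and other macrophages 1 was enriched, a share near the 8.21% of all expressed protein-coding genes and so no result about the list. This was P2ry12, with 33.1 FPKM in cortex and 8.05 in SCAT, a log2 ratio of 2.02 that lies just past the threshold. That call was lost when the libraries were scaled to each other and when only loci on the annotated strand were used. The locus shared by Cx3cr1 and Gorasp1 had 5.58 FPKM in cortex and 2.30 to 5.11 elsewhere, which cannot be assigned to the microglial gene. The complement genes C1qa and C1qb had 6.69 and 3.87 in cortex, below VAT, SCAT and liver.

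Of expressed genes of vessels and borders, 1 of 9 endothelial, 1 of 9 choroid plexus and ependyma and 0 of 7 meningeal genes were enriched. These counts lie near the 8.21% of all expressed protein-coding genes and are no result about the lists. Slco1c1, a thyroid hormone transporter of the blood-brain barrier, was the only enriched endothelial gene of 9 expressed, with 11.7 FPKM in cortex and at most 0.0955 elsewhere. Pecam1, found on all endothelium, had 1.46 FPKM in cortex and 4.80 to 26.6 elsewhere. Cldn5, a tight junction gene of all endothelium, was listed at or below 0.0293 in all 7 libraries, those rich in vessels included. In the choroid plexus and ependyma list Otx2 alone of 9 expressed genes was enriched, at 1.01 FPKM, a call lost with the annotated strand alone. Rarres2 was cortex-low at 5.24 FPKM against 22.1 to 358 elsewhere, a call lost when the libraries were scaled to each other. Ttr had 195 FPKM in cortex against 3530.1 in liver. No meningeal gene was enriched, with Dcn at 14.3 FPKM in cortex and up to 341 in VAT, though Ptgds was highest in cortex at 307 against 103 in VAT. The globin genes were lowest in cortex. Hbb-bs had 75.2 FPKM there against 396 to 1073 elsewhere, and 4 of 5 expressed red cell genes were cortex-low (2.90% of all protein-coding genes that could be called so), 2 with the libraries scaled to each other and 3 with the annotated strand alone. The split of reads between near-identical globin copies is uncertain. Whether the amount of blood left in the tissues differed was not tested.

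**Figure D2:**
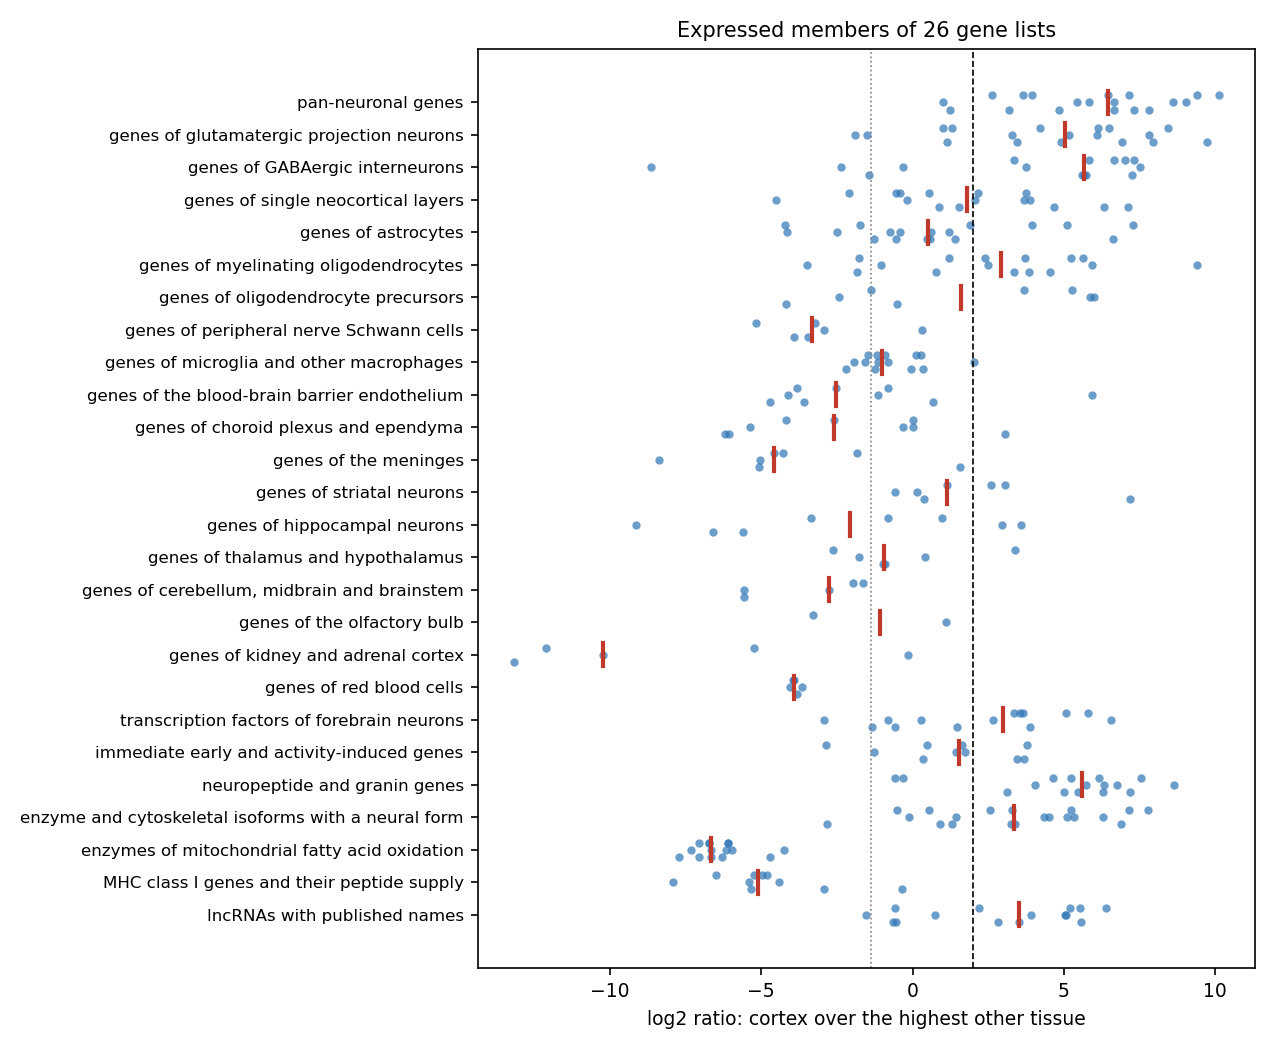
Each point is 1 expressed gene of the 26 lists, placed by its log2 ratio of cortex over the highest other tissue on log2(FPKM + 0.1), with the list median as a red bar, the 4-fold rule as a dashed line and the median of all expressed protein-coding genes (-1.37) as a dotted line. General neuronal genes have the highest median at 6.45, and genes of fatty acid oxidation lie wholly below the dotted line.

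The 130 cortex-enriched lncRNAs were lower in level than the enriched protein-coding genes and had a similar median log2 ratio. Their median cortex level was 3.38 FPKM and their median log2 ratio 3.99, and 117 of them were below 1 FPKM in all 6 other tissues. Over all expressed lncRNAs the median log2 ratio was -1.64. By Ensembl biotype, 75 of 884 antisense lncRNAs (8.48%) and 54 of 458 intergenic lncRNAs (11.8%) were enriched, and 1 of 31 with a bidirectional promoter. Of these 130 lncRNAs 81.5% were read from the annotated strand, against 84.7% of all expressed ones.

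Most cortex-enriched lncRNAs lay across a protein-coding gene. Of the 130, 83 (63.8%) overlapped one, a lower share than the 73.0% of all expressed lncRNAs. The partner, though, was itself cortex-enriched for 70 of the 130 (53.8%), against 27 of the 1250 expressed lncRNAs that were not enriched (2.16%). In these 70 pairs the lncRNA was above its partner in 17 and within 2-fold of it in 24, and the median log2 ratio of lncRNA over partner was -1.68. Whether fragments of a gene and of its antisense partner were counted apart cannot be read from the table, and the pairs below are uncertain for that reason.

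Of the 5 enriched lncRNAs with the highest cortex levels, 4 were antisense to synaptic and signalling genes. Chn1os1 (chr2:73658270-73660263, within Chn1 on the opposite strand) had 268 FPKM in cortex, 0 in liver, 0.0928 in kidney, 0.554 in VAT, 0.244 in SCAT, 0.217 in skeletal muscle and 2.70 in BAT. Chn1 itself had 268 FPKM in cortex, 0.105 in liver, 3.51 in kidney, 2.32 in VAT, 1.36 in SCAT, 1.45 in skeletal muscle and 6.79 in BAT. Both were highest in cortex and next highest in BAT. Chn1os3, at the 3′ end of the gene, had 219 FPKM and a log2 ratio of 5.45. Gm28221 had 249 FPKM against 111 for its partner Ncald, a neuronal calcium sensor, and Gm14703 had 238 against 158 for Syp, a synaptic vesicle protein whose locus also carries the name Prickle3. Both of these lncRNAs were thus above the gene they overlap. The log2 ratios of Gm28221 and Ncald were 4.60 and 4.59, and those of Gm14703 and Syp 5.40 and 4.83.

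By log2 ratio, the leading lncRNAs with a partner were Chn1os1 (6.58), described above, Gm26592 (18.03 FPKM, 6.69) across Icam5, an adhesion protein of telencephalic dendrites (22.05 FPKM, 7.33), Gm4409 (13.02 FPKM, 6.67) across Lrrtm4, a synaptic adhesion protein (2.10 FPKM, 4.34), Gm38039 (14.4 FPKM, 6.56) across Tnr (16.7 FPKM, 5.99) and Gm37459 (30.9 FPKM, 6.19) across Pex5l, a regulator of HCN channels (40.6 FPKM, 5.85). Gm4409 was above its partner, and Gm26592, Gm38039 and Gm37459 were below theirs.

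**Figure D3:**
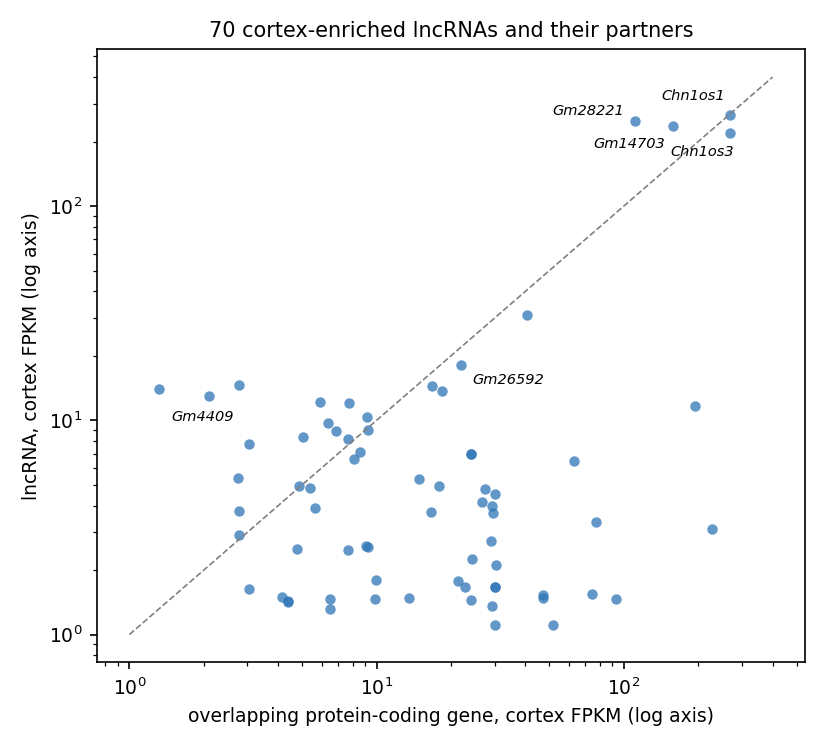
Cortex FPKM of 70 cortex-enriched lncRNAs (vertical log axis) against the cortex-enriched protein-coding gene that each overlaps (horizontal log axis), with equality as a dashed line and 1 point per pair. In 17 pairs the lncRNA lies above the line, among them Gm28221 with 249 against 111 and Gm4409 with 13.02 against 2.10.

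The other 47 enriched lncRNAs overlapped no protein-coding gene. Meg3, the maternally expressed lncRNA of the imprinted Dlk1 region (chr12:109541001-109571726), had 159 FPKM in cortex, 0.338 in liver, 0.325 in kidney, 3.04 in VAT, 1.06 in SCAT, 4.25 in skeletal muscle and 3.38 in BAT, a log2 ratio of 5.19. Cortex stood far above the rest, and its next highest tissue was skeletal muscle. Mirg, from the same region, had 4.82 FPKM and 3.53, and Rian, a transcript of that region outside the lncRNA biotypes counted here, had 389 FPKM and 5.04. Miat (21.6 FPKM, 6.40), Gm26953 (25.4 FPKM, 6.16), Dbpht2 (73.8 FPKM, 6.47) and Gm3279 (27.5 FPKM, 7.96) were also among the leading lncRNAs. Miat and Gm26953 overlap each other on opposite strands, and the value of Gm3279 is that of the locus it shares with Neurod6. Malat1 and Gas5, expressed in all tissues, had log2 ratios of -0.63 and -0.57.

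Several enriched loci carry the names of microRNAs, and for the Meg3 locus and C130071C03Rik the mature sequences from RefSeq (GRCm38.p6, plus strand) are shown as examples. The Mirg locus also carries microRNA names, and Mir124a-1hg, the second of all lncRNAs by log2 ratio (7.14), had 15.3 FPKM in cortex and at most 0.00877 elsewhere, read from the strand opposite to its annotation. C130071C03Rik, at chr13:83721381-83884194, had 7.40 FPKM in cortex, 0.00839 in liver, 0.0596 in kidney, 0.0180 in VAT, 0.0143 in SCAT and was listed at 0 in BAT and skeletal muscle, and it was chosen after its values were seen. The libraries measured the host loci, not the mature microRNAs. Capitals mark the seed, bases 2 to 8, which pairs with target transcripts. The arms of Mir9-2 lie at chr13:83738821-83738843 and chr13:83738858-83738879, those of Mir770 at chr12:109563710-109563731 and chr12:109563744-109563765, and Mir1906-1 at chr12:109544588-109544609. No 2 of these sequences share a seed.
miR-9-5p: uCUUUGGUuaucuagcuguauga
miR-9-3p: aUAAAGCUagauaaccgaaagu
miR-770-5p: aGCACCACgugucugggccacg
miR-770-3p: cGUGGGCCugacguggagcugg
miR-1906: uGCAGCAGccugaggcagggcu

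The rule did not use the length of genes, and cortex-enriched protein-coding genes spanned more of the genome than the others. Their median span from annotated start to end was 50.2 kb with quartiles of 12.3 and 194 kb, against 24.2 kb with quartiles of 10.2 and 59.3 kb for all expressed protein-coding genes. Genes of 100 kb or more made up 37.3% of the enriched set (457 genes) and 14.9% of all expressed ones. In the sets enriched in the other tissues the median span ran from 8.54 kb in VAT to 23.0 kb in kidney, with liver at 17.2 and skeletal muscle at 21.2. Enriched lncRNAs had a median span of 8.41 kb against 6.47 kb for all expressed lncRNAs. FPKM is scaled for the length of the spliced transcript and not for this span.

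**Figure D4:**
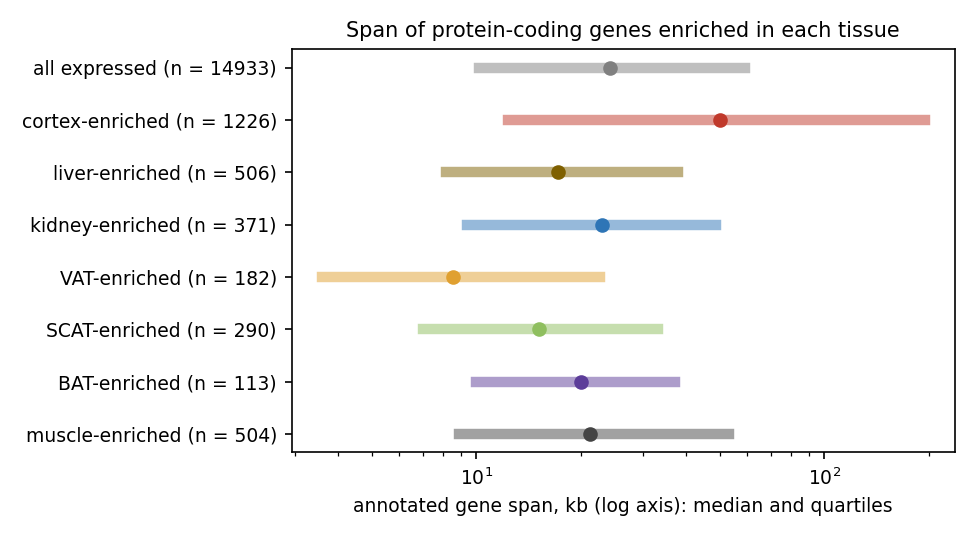
Median (dot) and quartiles (bar) of the annotated span in kilobases, on a log axis, of protein-coding genes enriched in each tissue and of all expressed ones. The cortex-enriched set lies highest with a median of 50.2 kb, against 8.54 to 23.0 kb for the sets of the other 6 tissues.

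Cortex was also the tissue in which some metabolic and immune genes were lowest. The 242 cortex-low protein-coding genes had a median of 0.578 FPKM in cortex, and 161 of them were below 1 FPKM there. Their median log2 difference from the lowest other tissue was -2.58, and 16 were at or below -4. Their highest tissue was BAT for 69 and liver for 64. Ces1d, a carboxylesterase of lipid metabolism, had 0.619 FPKM in cortex, 463 in liver, 229 in kidney, 340.4 in VAT, 191 in SCAT, 40.3 in skeletal muscle and 838 in BAT. Its log2 difference of -5.81 from the lowest other tissue was the largest of the set. Gpihbp1, which anchors lipoprotein lipase to capillaries, had 0.0361 FPKM in cortex and 6.95 to 66.1 elsewhere, and Cd36, a fatty acid transporter, had 2.46 in cortex and 133 to 1929 elsewhere. The other 7 of the 10 lowest were Aqp1 (-5.30), Adh1 (-5.14), Slc43a3 (-4.90), Cd74 (-4.76), Ghr (-4.75), Cd300lg (-4.71) and H2-Aa (-4.60), which include a water channel, an alcohol dehydrogenase, the growth hormone receptor and a pair of genes of MHC class II antigen presentation.

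Of 15 enzymes and carriers of mitochondrial fatty acid oxidation, all were lowest in cortex, and 6 of them by the 4-fold rule, beside 2.90% of all protein-coding genes that could be called so. Acadm, the medium-chain dehydrogenase, had 5.51 FPKM in cortex, 62.6 in SCAT, 76.4 in VAT, 276 in skeletal muscle, 416 in liver, 446 in kidney and 1183 in BAT. Acads had 1.29 in cortex and 9.56 to 187 elsewhere, and Slc25a20, the carnitine carrier, had 2.52 and 11.4 to 348. Cpt1b, the muscle form of the entry enzyme, came closest to the other tissues, with 9.71 in cortex and 9.95 in VAT, from a locus shared with Chkb. Of 10 genes of MHC class I and its peptide supply, 5 were cortex-low, beside the same 2.90%. The values of 2 of these belong to merged loci, Tap2 with the class II gene H2-Aa and Tapbp with Zbtb22, and cannot be assigned to 1 gene. B2m, the light chain of class I molecules, had 39.9 FPKM in cortex and 183 to 1602 elsewhere, and H2-K1 had 2.68 and 23.1 to 248. Psmb10, with 15.9 FPKM in cortex and 7.12 to 20.5 elsewhere, was the member that did not follow. With the libraries scaled to each other, 3 of these 10 genes passed the 4-fold rule. Reads of H2-K1 and H2-D1, which are close copies, may not be fully separated.

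**Figure D5:**
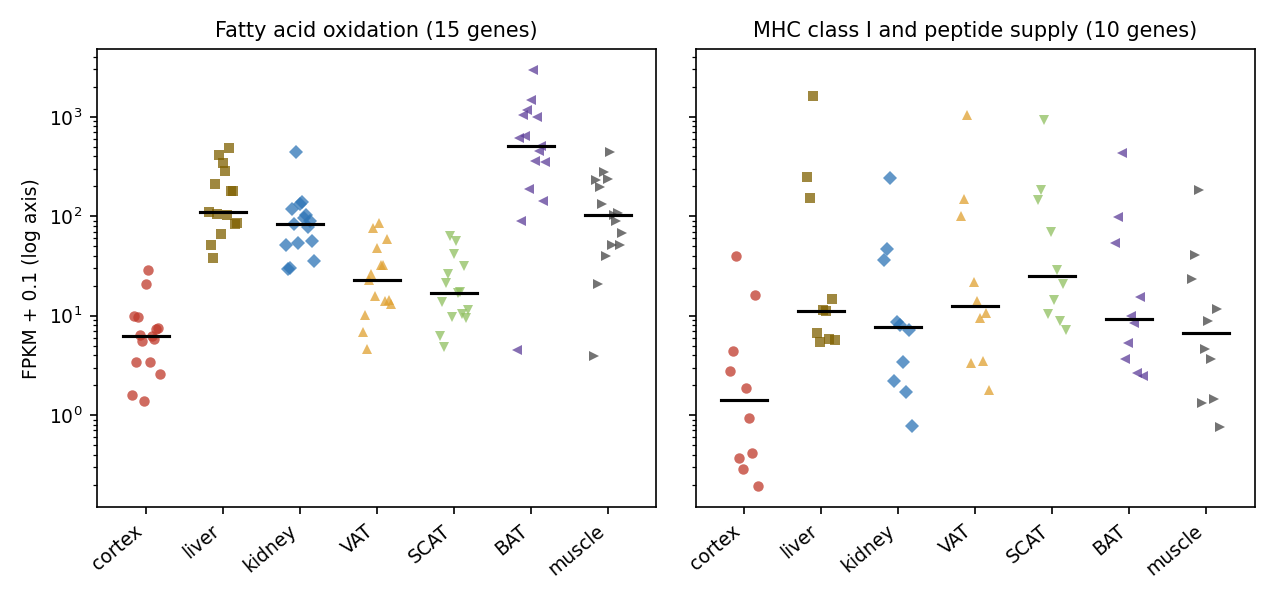
FPKM plus 0.1 on a log axis for 15 fatty acid oxidation genes (left) and 10 MHC class I genes (right) in the 7 libraries, with 1 point per gene and the median as a bar. For fatty acid oxidation each gene is lowest in cortex and the median is highest in BAT, with Acadm at 5.51 FPKM in cortex and 1183 in BAT.

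The 13 cortex-low lncRNAs were led by Gm16567, which lies across the complement gene C1s1 on the opposite strand. It had 0.108 FPKM in cortex, 151 in liver, 6.60 in kidney, 35.4 in VAT, 32.2 in SCAT, 25.02 in skeletal muscle and 13.2 in BAT. Gm15441, across Txnip, had 4.37 FPKM in cortex and 47.5 to 317 elsewhere. C1s1 and Txnip had 0.249 and 2.63 FPKM in cortex.

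Genes at the edge of the rule show how it divides a continuous range. Just inside lay Cstf2 and Tmem181a with log2 ratios of 2.01 and Abi2 with 2.02, and just outside Cadps2 and Fkbp1a with 2.00 and Vopp1 with 1.99. Among lncRNAs, 1700026J14Rik and Gm15688 with 2.02 and Gm17202 with 2.07 were inside, and Gm26662 and Gm26723 with 2.00 and Gm14827 with 1.99 were outside.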

How the data were processed

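Total RNA of each tissue was depleted of rRNA, and libraries were made with the NEBNext Ultra Directional kit and sequenced on an Illumina HiSeq. Per the methods and the submitters' processing notes, adapters were removed with flexbar, rRNA reads with Bowtie2 2.2.9, and the rest aligned to GRCm38 (Ensembl) with STAR 2.6.0c. Transcripts were assembled, merged and compared with Cufflinks 2.2.1 (cuffdiff). The strand setting is not given in the sources used here. The authors deposited FPKM for 94339 loci in 21 pairwise comparisons. Their log2 fold changes, test statistics, p-values and q-values were not used.

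From this table, names were split on commas and the locus with the highest FPKM was kept. The 151 loci with status FAIL were left out, and 147 zeros with status LOWDATA in at least 5 of 6 comparisons were set missing. GENCODE M21 matched 46247 of 50226 names (92.1%), of which 21405 are protein-coding genes and 6040 lncRNAs of 5 biotypes. A pseudocount of 0.1 FPKM was added before log2. Because the table has no strand column, strand was read from the order of its loci.

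The members, lists and rules were chosen with earlier results of these data known. Named are members of the 26 lists, the 15 enriched protein-coding genes with the largest log2 ratio and the 15 with the highest cortex FPKM, the 10 and 5 such lncRNAs, the 10 lowest cortex-low genes, the genes at the threshold and genes overlapping a named lncRNA. C1s1, Txnip and the other lncRNAs with a cortex-low call were picked once their values were known. Some members of the lists and rules are not reported here. Alternatives covered the pseudocount, minimum FPKM, fold, scaling, left-out tissues, strand and shared loci. Python 3.11.15 with pandas 2.3.3, NumPy 2.4.6 and matplotlib 3.10.9 were used.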

Additional observations from a re-analysis of the deposited data

How the results depend on the processing

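No paired analysis was possible because there was 1 library per tissue, and for the same reason no replicate could be left out. Of 21 alternatives, 20 kept the count of enriched protein-coding genes (1226) within 1.5-fold, from 865 to 1785, and the mean of the other 6 tissues in place of the highest gave 2120. Enriched lncRNAs (130) ran from 97 to 176 under 17 alternatives, and gave 57 with a pseudocount of 1, 46 with a minimum of 5 FPKM, 214 with no minimum and 202 with the mean. Cortex-low protein-coding genes (242) ran from 181 to 325 under 16 alternatives, and gave 76 with a pseudocount of 1, 108 with a minimum of 5 FPKM, 703 at 2-fold, 74 at 8-fold and 861 with the mean. Cortex-low lncRNAs (13) gave 3, 4, 41, 5 and 48 under the same 5 changes, 21 with no minimum, 20 without kidney and 22 without liver. In an alternative added after the data were seen, reading loci of the annotated strand alone gave 1022 enriched protein-coding genes, 1008 of them shared with the 1226, and 113 enriched lncRNAs, all 113 shared. Leaving out loci with several names gave 1145 and 117. Scaling the libraries to each other over 7833 genes, with log2 shifts from -0.39 for skeletal muscle to 0.52 for SCAT and 0.20 for cortex, gave 1289 enriched protein-coding genes, 144 enriched lncRNAs, 181 cortex-low protein-coding genes and 12 cortex-low lncRNAs. The depth of the libraries is unknown, so low FPKM values have no stated precision.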
